A study of Papio anubis with 6 samples.

Results

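The DNA replication and S phase genes described here are 45 genes that license origins, unwind and copy DNA, supply deoxynucleotides or regulate S phase. They were chosen by name and not by any measured value, although earlier results of these data were known. Rows were matched by gene symbol. A mean level was listed for 44 of the 45 members in both tables, against 16353 gene names that had a level in both, and POLD1 matched no row. The cells were proerythroblasts, early red cell precursors sorted from baboon (Papio anubis) bone marrow by their surface antigens as CD105+, CD34-, CD117+ and positive for a baboon red cell antigen. RN-1 is an inhibitor of the histone demethylase LSD1 (KDM1A). The 2 control samples came from untreated baboons, and the 2 short-term samples came from the same animals after 0.25 mg/kg/d of RN-1 for 3 d. The 2 long-term samples were taken from different animals, which received 0.25 mg/kg/d on 5 d per week for more than 265 d, so in that group treatment and animal cannot be told apart.

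Before a cell enters S phase, CDC6 and CDT1 load the MCM2 to MCM7 ring onto origins, and CDC45 and GINS later join the ring to make the active helicase. DNA polymerase alpha with primase starts each strand, the RFC complex loads the PCNA clamp, and polymerases delta and epsilon extend the DNA while RPA coats the single strands. Proerythroblasts divide rapidly, and these genes are known to be transcribed together through E2F factors around the G1 to S transition.

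For each gene, 1 mean level per table was used, as the log2 of CPM, the count of a gene scaled to a common library total. The short-term table averages 2 control and 2 short-term libraries, and the long-term table averages the same 2 control and 2 long-term libraries. The values are therefore not separated into control and treated samples, no SD can be given, and no test was run. The libraries were made from the poly(A) end with 1 fragment per transcript, so levels of different genes were compared without correction for length. A level also depends on where the reference genome build places the end of the transcript. Effective library sizes recovered from the lowest levels were 3372640 to 5270050 reads in the short-term table, with a mean of 3634190 reads in the long-term table. The 95% intervals given in brackets are exact Poisson intervals and cover counting error only. Markers of the sorted cells were present. Of 11 genes in the proerythroblast list, which includes CD34, 10 had a level of at least 56.5 CPM in both tables. KIT (CD117) stood at 228 and 220 CPM in the short-term and long-term tables, ENG (CD105) at 102 and 97.7 CPM and the transferrin receptor TFRC at 1272 and 1290 CPM. CD34, whose antigen the sorted cells were selected to lack, was listed without a level in both tables. The summed level of 7 monocyte and macrophage markers was 0.872 CPM in the short-term table (3 with a level) and 10.7 CPM in the long-term table (5 with a level), where CD163 was highest at 49.1 estimated reads against 2.99 in the short-term table. Of 6 megakaryocyte and mast cell markers the sum was 0.177 CPM (1 with a level) and 13.6 CPM (4 with a level), of which HDC made up 9.42 CPM. The 2 tables averaged the libraries differently, so these low levels are not on the same scale in both. The lymphocyte marker MS4A1 stood at 0.118 and 0.550 CPM, although it had no estimated reads in the long-term table. Estimated reads of the short-term table also assume equal CPM in the 4 libraries. LYZ, CPA3, MPO and CD3E had no level in either table. The part of these other cells in the levels below was not tested. In bulk samples, fewer cells in S phase and less RNA per cell cannot be told apart.

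Replication genes were among the well expressed genes of these cells. The median member stood at 7.05 log2 CPM in the short-term table and 7.08 in the long-term table, whereas the median of all genes with a level in the same table stood at 2.85 and 2.81. The median member was at the 91.0th and the 91.7th percentile of all genes in the 2 tables. The upper quartile of all genes (5.37 and 5.25 log2 CPM), which by its definition holds 25% of genes, was reached by 36 of 44 members in the short-term and 37 of 44 in the long-term table. All 44 members had more than 3 estimated reads over the 4 libraries of each table, the lowest being GINS4 with 65.9 and 63.1 reads. Together the members took 9528 CPM in the short-term table and 9720 CPM in the long-term table. The levels ranged from 1.93 (GINS4) to 9.87 (PCNA) log2 CPM in the short-term table and from 2.29 to 9.80, for the same genes, in the long-term table. Of 43 pairs of neighbours in the order of levels, the counting intervals overlapped in 24 pairs in the short-term table and in 26 pairs in the long-term table, so much of the fine order is not resolved.

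**Figure D1:**
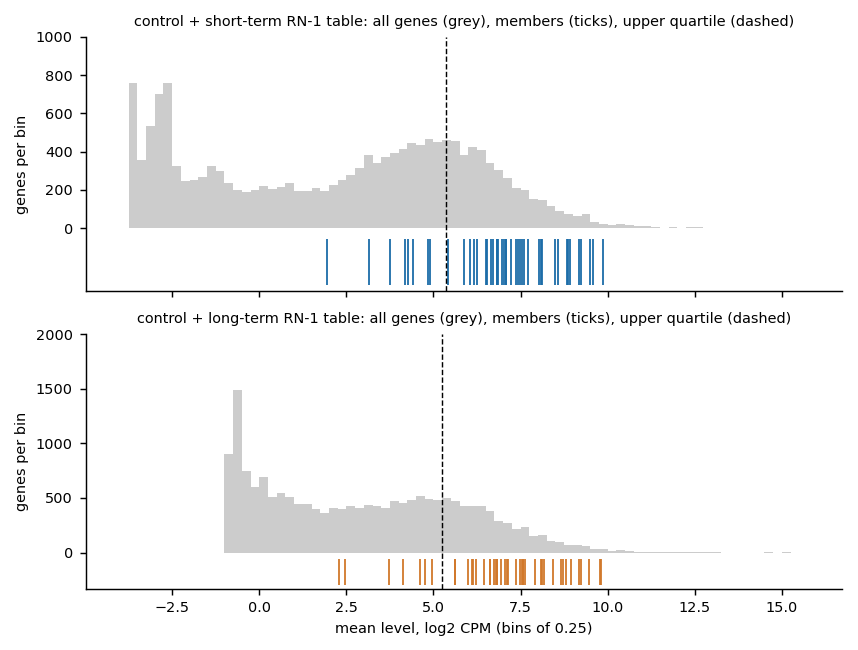
Histograms of the mean level (x axis, log2 CPM, bins of 0.25) of all genes with a level in the short-term table (top) and the long-term table (bottom), with the number of genes on the y axis and each member as a tick below. Most ticks lie to the right of the dashed upper quartile (36 of 44 and 37 of 44 members).

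The licensing helicase was expressed at a high level, but the measured levels of its subunits were unequal. MCM7, a subunit of the MCM2 to MCM7 ring, stood at 721 CPM [708 to 734] in the short-term table and 700.5 CPM [687 to 714] in the long-term table. MCM2 followed at 604 and 599 CPM, and MCM4, whose gene product carries part of the helicase activity, at 453 and 447 CPM. These 3 subunits were within the top 334 genes of the short-term table. MCM3 stood at 361 and 343 CPM, and MCM5 at 105 and 114 CPM. MCM6 was the lowest subunit, at 28.6 CPM [26.2 to 31.3] and 31.2 CPM [28.4 to 34.1]. The order MCM7, MCM2, MCM4, MCM3, MCM5, MCM6 was the same in both tables, which share their control libraries. MCM7 exceeded MCM6 by a ratio of 25.2 in the short-term table and 22.5 in the long-term table, although the 6 proteins form 1 ring. The counting intervals do not cover errors in the placement of transcript ends. The part of such errors in this and the other ratios between subunits was not tested. The loading factors were both well expressed. CDC6, the ATPase that recruits CDT1 and the MCM ring to the origin recognition complex, stood at 259 and 290 CPM, and CDT1, which delivers the ring, at 194 and 187 CPM.

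The genes that turn the loaded ring into an active helicase were lower, with a median of 4.23 log2 CPM in the short-term table and 4.44 in the long-term table over 6 genes. MCM10, which is needed for origin firing, was the highest of them at 114 CPM [109 to 120] in the short-term table and 97.6 CPM [92.6 to 103] in the long-term table. CDC45, which holds the helicase together with GINS, stood at 59.3 CPM [55.7 to 63.0] and 70.0 CPM [65.7 to 74.4]. The 4 GINS subunits were all below the upper quartile. GINS1 had 19.4 CPM in the short-term table and 17.5 CPM in the long-term table. GINS2 had 18.2 and 27.0 CPM, GINS3 13.6 and 13.3 CPM, and GINS4 3.82 and 4.89 CPM. GINS1 and GINS2 overlapped in their counting intervals in the short-term table ([17.3 to 21.6] and [16.3 to 20.3]) but not in the long-term table, where GINS2 was the higher ([15.4 to 19.7] and [24.5 to 29.8]).

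The sliding clamp was the most abundant member. PCNA, which tethers polymerases and many other factors to DNA, stood at 938 CPM [923 to 952] in the short-term table, rank 102 of 16353 genes, and at 893 CPM [878 to 909] in the long-term table. The 5 subunits of its loader spread widely. RFC3 was the highest small subunit at 379 and 404 CPM, and RFC1, the large subunit, stood at 185 and 198 CPM. RFC2 had 99.8 and 110.4 CPM and RFC5 had 92.5 and 106 CPM, and the intervals of this pair overlapped in both tables. RFC4 was far below the other subunits, at 8.88 CPM [7.52 to 10.4] in the short-term table and 5.48 CPM [4.43 to 6.79] in the long-term table. The ratio of RFC3 to RFC4 was 42.7 [35.6 to 51.6] in the short-term table and 73.7 [58.0 to 93.7] in the long-term table, the widest spread within any of the 10 complexes and pairs described.

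The catalytic subunit was the highest member of both polymerase complexes for which it had a level. POLA1, the catalytic subunit of polymerase alpha, stood at 461 and 423 CPM in the short-term and long-term tables. PRIM1, which synthesizes the RNA primer, stood at 71.8 and 64.0 CPM, and POLA2, the accessory subunit, at 43.1 and 49.2 CPM. POLE, the catalytic subunit of polymerase epsilon on the leading strand, stood at 124 and 114 CPM. Its partner POLE2 stood at 30.0 CPM [27.5 to 32.7] and 49.5 CPM [46.0 to 53.3], so the ratio of POLE to POLE2 was 4.13 [3.63 to 4.71] in the short-term table and 2.31 [2.04 to 2.61] in the long-term table. Of polymerase delta, POLD3 stood at 171 and 180 CPM and POLD2 at 91.1 and 87.8 CPM. The subunits of the single-strand binding complex RPA were closer to each other. RPA1, its large subunit, had 148 and 167 CPM, RPA2 had 112 and 98.9 CPM and RPA3 had 66.1 and 74.8 CPM, a ratio of highest to lowest of 2.24 and 2.23.

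Genes for joining and repairing the new strand were high. LIG1, the ligase that seals Okazaki fragments, stood at 487 and 497 CPM in the short-term and long-term tables. FEN1, the flap nuclease that trims them, stood at 166 and 188 CPM. UNG, which removes uracil from DNA, stood at 113 and 124 CPM.

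Nucleotide synthesis had the highest median level of any role in the short-term table after licensing, 8.65 log2 CPM against 8.66, and the highest in the long-term table, 8.64 against 8.61. TYMS, the thymidylate synthase, was the second member in both tables, at 772 CPM [759 to 785] and 880 CPM [865 to 895]. RRM1 and RRM2 form ribonucleotide reductase, which makes deoxynucleotides from ribonucleotides. The large subunit RRM1 stood at 580 CPM in either table, and RRM2, which is known to be limited to S phase, at 272 and 276 CPM. The ratio of RRM1 to RRM2 was 2.13 and 2.10. TK1, the salvage thymidine kinase, stood at 277 and 270 CPM, and its counting interval overlapped that of RRM2 in both tables.

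Of the genes that rebuild chromatin behind the fork, the large CAF-1 subunit CHAF1A stood at 135 and 134 CPM and its partner CHAF1B at 21.5 and 24.7 CPM. SLBP, which binds the stem-loop of histone mRNA, stood at 209 CPM [203 to 216] in the short-term table and 239 CPM [232 to 247] in the long-term table. The 4 genes that regulate S phase ranged from 6.24 to 7.48 log2 CPM in the short-term table. In the long-term table they ranged from 6.11 to 7.58. E2F1, the transcription factor that drives many of these genes, stood at 178 and 191 CPM, and DTL, which directs the destruction of CDT1 in S phase, at 135 and 137 CPM. The E-type cyclins, which activate CDK2 at the G1 to S transition, stood at 130 and 141 CPM for CCNE1 and 75.6 and 69.0 CPM for CCNE2.

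**Figure D2:**
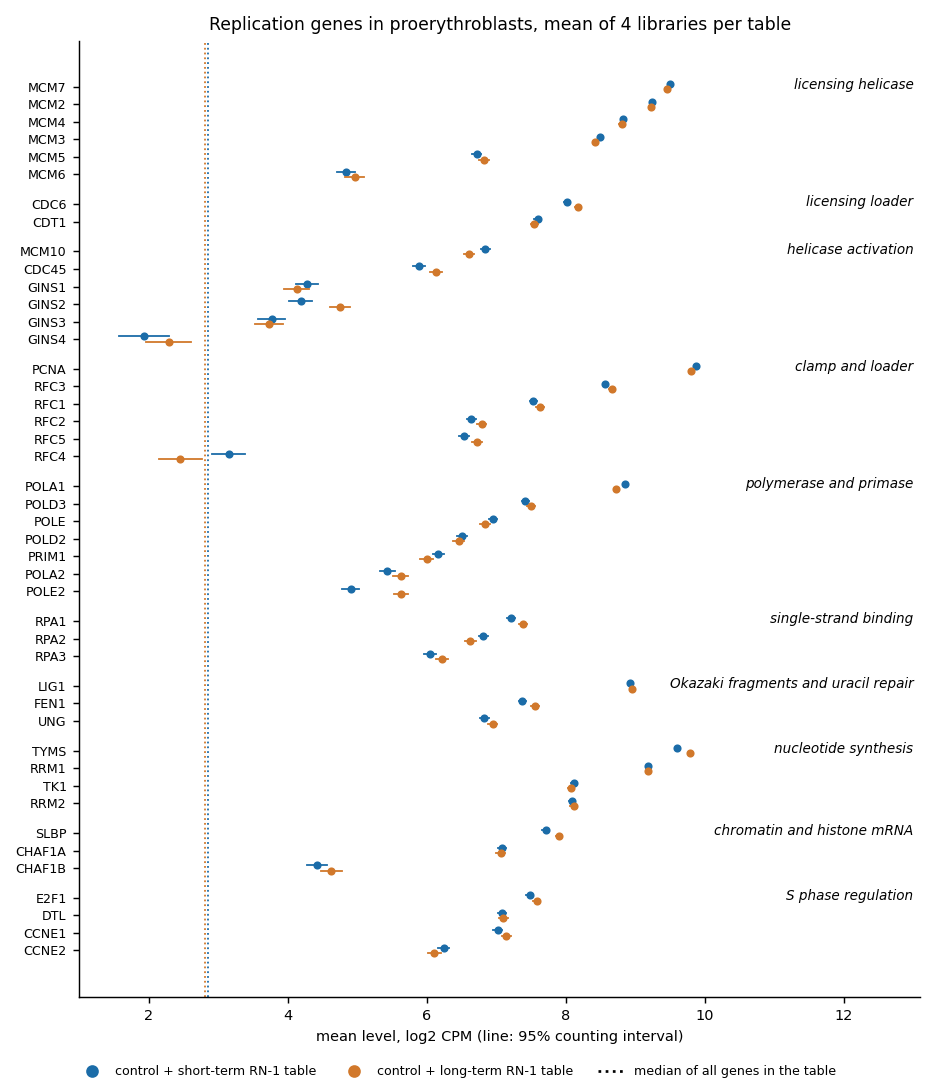
Mean level (x axis, log2 CPM) of each of the 44 members with a level, grouped by role, in the short-term table (blue) and the long-term table (orange), with 95% counting intervals as lines and the median of all genes as dotted lines. PCNA is highest and GINS4 lowest in both, and MCM6 and RFC4 lie far below the other subunits of their complexes.

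Both tables contain the same control libraries and each adds 1 treated group, and the difference of their mean levels asks whether replication genes stood differently in long-term and short-term samples. For most members the difference was small. It ranged from -0.69 (RFC4) to 0.72 (POLE2) on the log2 scale. The median was 0.05 and the SD across the 44 members was 0.22. Of the members, 25 were higher and 19 lower in the long-term table, against 12922 higher and 3431 lower of all 16353 genes. Members were thus higher less often than genes in general. The part of the tables' different averaging in these counts was not tested. An absolute difference of at least 0.5 was found in 3 of 44 members, against 49.1% of all genes in both tables. The median difference of all genes was 0.44. The 2 tables averaged the libraries differently, and this was not limited to genes with few reads. Among the 9019 genes that reached 2 log2 CPM in both tables, the median difference was 0.08 and 12.2% passed 0.5, as did 3 of 43 members. These genes were not matched to the members in level, and the spread of all genes widened toward low levels. The tables were taken as normalized separately, and the shared controls dilute any difference between the treated groups.

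The 3 members were POLE2, RFC4 and GINS2. POLE2, the accessory subunit of polymerase epsilon, was higher in the long-term table by 0.72 (30.0 against 49.5 CPM, 517 and 712 estimated reads). GINS2 was higher by 0.57 (18.2 against 27.0 CPM), which became 0.49 after the shift of 0.08 was subtracted. RFC4 was lower by 0.69 (8.88 against 5.48 CPM, 153 and 71.7 estimated reads). The short-term level behaved as a mean of log2 values and the long-term level as the log2 of a mean. The part of this in the 3 differences was not tested. The members nearest below the threshold were GINS4 (0.36), CDC45 (0.24), MCM10 (-0.23) and CHAF1B (0.20). For the most abundant members the differences were -0.07 for PCNA, -0.04 for MCM7, -0.01 for MCM2 and 0.19 for TYMS.

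**Figure D3:**
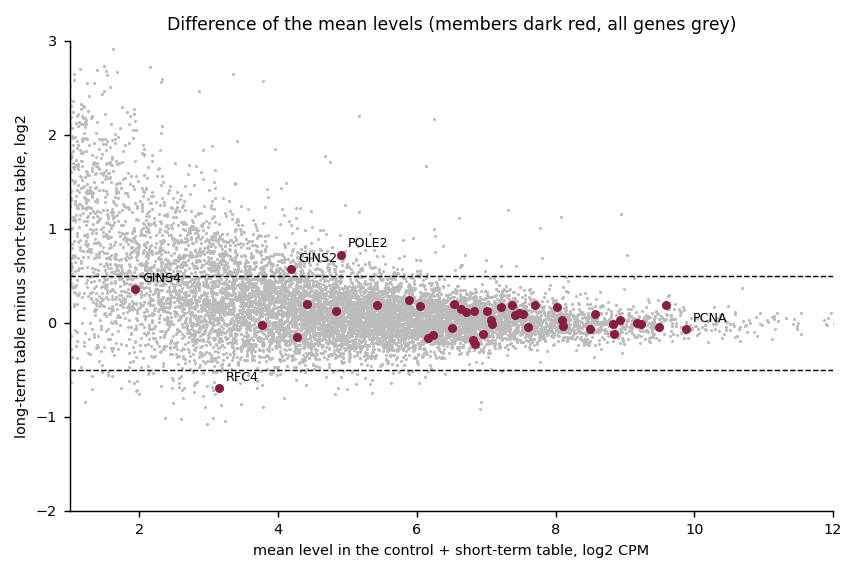
Difference of the mean level between the tables (y axis, long-term minus short-term, log2) against the mean level in the short-term table (x axis, log2 CPM), with members in dark red, all genes in grey and dashed lines at 0.5 and -0.5. POLE2 and GINS2 lie above the upper line and RFC4 below the lower line, and the spread of all genes widens toward low levels. Genes outside the plotted range are not shown.

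In 7 further lists of replication genes the levels varied more, and some genes were near the floor. The 2 tables averaged the libraries differently, and the part of this in the differences below was not tested. Of the origin recognition complex and its regulator geminin, 4 of 7 genes reached the upper quartile in both tables. GMNN, the inhibitor of CDT1, was highest in the short-term table at 125 CPM, and ORC3, a subunit of the complex, was lowest at 1.83 CPM against 8.49 CPM in the long-term table. ORC4 was just past the difference of 0.5 (0.51, 13.2 against 18.7 CPM), but became 0.47 with the prior count removed and 0.43 after the shift of 0.08 was subtracted. All 7 origin firing genes were in the upper quartile in both tables, from DBF4, the partner of the CDC7 kinase, at 72.6 CPM to CDK2 at 549 CPM in the short-term table, and none passed 0.5. Of 9 fork stability and checkpoint genes, 5 reached the upper quartile in the short-term table and 6 in the long-term table. CLSPN, the adaptor of CHEK1, was highest at 147 CPM and ATRIP, the partner of the ATR kinase, lowest at 15.6 CPM in the short-term table. ATRIP and TIPIN, a fork protection factor, were higher in the long-term table by 0.57 and 0.63, of which ATRIP became 0.49 after the shift was subtracted.

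The largest differences in these lists were at low levels, and the 2 tables averaged the libraries differently. Over all genes in both tables, 49.1% passed 0.5 and the 95th percentile of the difference was 3.37. The 7 other polymerase and clamp genes were not high as a list, with medians of 5.23 and 4.60 log2 CPM, and 2 of 6 with a level in the short-term table and 3 of 7 in the long-term table reached the upper quartile. ATAD5, which unloads PCNA, was highest at 275 CPM and the primase subunit PRIM2 lowest at 0.981 CPM in the short-term table against 2.62 CPM in the long-term table. DSCC1, part of an alternative clamp loader, was lower in the long-term table by 0.54 (35.3 against 24.2 CPM), and POLD4 had a level in the long-term table alone (5.10 estimated reads). In the nucleotide supply list of 9 genes, with medians of 5.24 and 5.45 log2 CPM, 4 and 6 reached the upper quartile. DUT, which keeps uracil out of DNA, stood at 755 and 694 CPM. SAMHD1, which degrades deoxynucleotides, was lowest in the short-term table at 0.189 CPM against 2.67 CPM. RRM2B, the p53-regulated reductase subunit, stood at 1.51 and 6.13 CPM. SAMHD1 and RRM2B had 3.27 and 26.1 estimated reads in the short-term table. The monocyte and macrophage markers above also stood higher in the long-term table. The lowest level of any gene was -3.58 log2 CPM in the short-term table and -0.86 in the long-term table. The part of the markers and of the different averaging in these values was not tested.

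Chromatin assembly genes had the highest median of the 7 lists, 7.74 and 7.67 log2 CPM, and 9 of 9 genes in the short-term table and 8 of 9 in the long-term table reached the upper quartile. DNMT1, the maintenance DNA methyltransferase, stood at 810 and 860 CPM, and ASF1A, a histone chaperone, was lowest in the short-term table at 43.4 CPM against 37.5 CPM. None of these 9 genes passed 0.5. Among 11 E2F and pocket protein genes, 7 reached the upper quartile in both tables. TFDP1, the dimerization partner of E2F proteins, was highest at 394 and 380 CPM and E2F5 lowest at 0.137 CPM in the short-term table, with 2.35 and 1.99 estimated reads, which is below the limit of 3 reads. E2F6 and E2F7, both repressors of E2F targets, were higher in the long-term table by 0.53 and 1.09 (11.5 against 16.5 CPM and 6.81 against 14.5 CPM), but E2F6 became 0.49 with the prior count removed and 0.45 after the shift was subtracted.

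**Figure D4:**
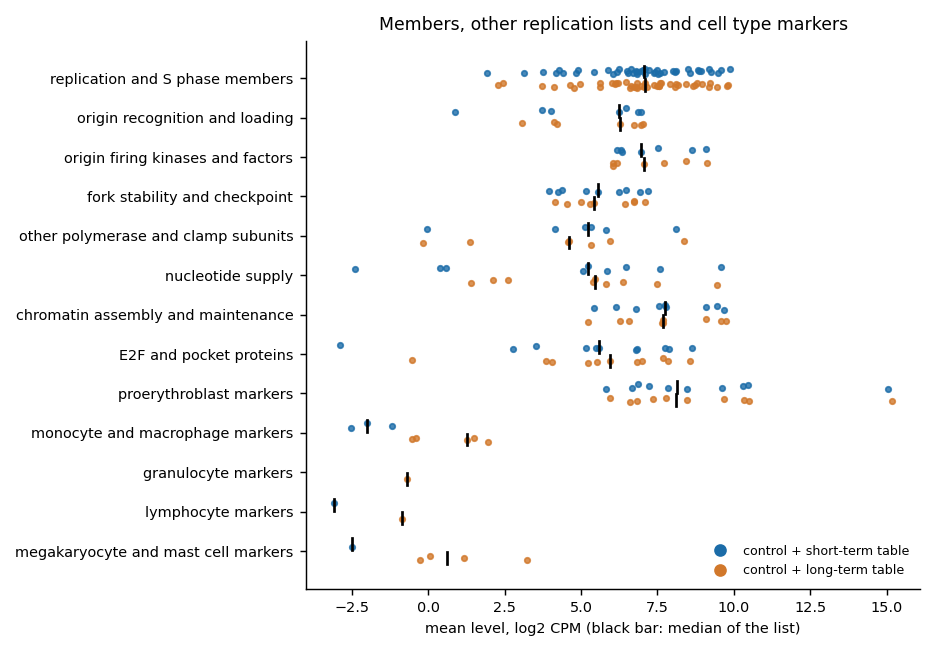
Mean levels (x axis, log2 CPM) of the members, of 7 other replication lists and of cell type marker lists in the short-term table (blue) and the long-term table (orange), with each point a gene and black bars the list medians. Members have medians of 7.05 and 7.08, and the marker lists of other cell types lie far lower.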

How the data were processed

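RNA of 6 samples in 3 groups of 2 was sequenced by the authors from the poly(A) end with a strand-specific kit. Reads were aligned by the authors to Panu_2.0 with BWA MEM, counted with featureCounts and compared with edgeR; the sources used here give no versions. Levels depend on where that build places the end of each transcript. The 2 deposited tables list 39023 rows each. The deposited log2 CPM columns, which the authors made as means over 4 libraries, had a level for 16355 and 17942 rows and were the values used. The tables also hold the authors' fold changes, p-values, q-values, calls and pathway terms, and these were not used; tests planned for counts per sample were not run. Repeated names were left out.

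The lowest levels showed how the means were made. In the short-term table all 1646 levels below -3 log2 CPM (100%) matched whole reads within 1e-06 as the mean of log2 CPM with a prior count of 0.25, when up to 8 reads were tried. Long-term levels were read back with a prior count of 2: 901 genes had no reads, and 90.7% of the 3099 genes at 1 to 7 reads lay within 0.1 of a whole number. Library sizes and reads follow from this and are inferred. Estimated reads in the short-term table assume equal CPM in the 4 libraries. The recovery was tested on simulated data, made with the same averaging and prior counts and with equal CPM in the 4 libraries. That test could not show whether these hold for the real libraries.

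The members and lists were chosen with earlier results of these data known. All 45 members are named, with the highest and lowest gene by short-term level of each other list and the genes past a difference of 0.5, except 1 gene that is not reported here. Alternatives were removal of the prior count, other backgrounds, limits, matching by synonym and centring. RefSeq names of Panubis1.0 matched 44 members and gave no further row. Analyses used Python 3.11.15, pandas 2.3.3, NumPy 2.4.6, SciPy 1.17.1 and matplotlib 3.10.9.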

Additional observations from a re-analysis of the deposited data

How the results depend on the processing

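Of 35 alternative values, 29 stayed within counting error or within 1.5 times the reported count and 6 did not. The median percentile of the members became 86.3 (short-term table) and 89.5 (long-term table) against genes that reached 0 log2 CPM, and 84.1 and 85.5 against genes that reached 2 log2 CPM, since these backgrounds leave out low genes. The number of members past the difference between tables became 0 at a threshold of 1 and 10 after centring on the median of all genes, when 56.6% of all genes passed; after centring on genes that reached 2 log2 CPM in both tables, an alternative added after the data had been seen, it was 2. Removing the prior count left 3, and the ratios within the 10 complexes and pairs stayed within their counting intervals. Genes with many reads can hardly move in this step, so it tests little for most ratios and for the median levels. The count of 44 detected members could hardly move either, as each had at least 63.1 estimated reads against limits of 3 and 10. It also does not undo the different averaging of the 2 tables. No paired analysis was possible because the columns used hold means over libraries, and for the same reason no replicate could be left out. Depth limits the order of neighbouring levels and, below 3 reads, E2F5 and MS4A1 in both tables and CD163 in the short-term table.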
